A study of Mus musculus with 21 samples.

Results

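The genes described here encode the matrix metalloproteases (Mmp), the ADAM and ADAMTS metalloproteases, and the tissue inhibitors of metalloproteases (Timp). They were chosen by symbol alone, as every row of the deposited expression table that begins with Mmp, Timp, Adam or Adamts followed by a digit. This gave 78 of 22520 genes, with 23 Mmp, 4 Timp, 32 Adam and 19 Adamts genes. Of the 78, 25 reached 1 FPKM (sequenced fragments, scaled to gene length and library size) in at least 1 column and are described. The other 53 stayed under 1 FPKM in every column, and 5 of these (Adam18, Adam1b, Adam25, Adam26b and Mmp20) were listed at 0 throughout.

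RNA-seq was made from whole mouse liver of 4 genotypes in 3 conditions. DKO livers carried the Ezh1-/- and Ezh2fl/flAlb-Cre alleles together, E2KO livers carried Ezh2fl/flAlb-Cre, E1KO livers were Ezh1-/-, and WT livers carried the floxed Ezh2 allele without Cre. Alb-Cre acts in cells that use the albumin promoter, so the other cells of an E2KO or DKO liver keep Ezh2. Ezh1 and Ezh2 are the alternative methyltransferase subunits of PRC2, which places the repressive H3K27me3 mark. The conditions were injection of the liver toxin CCl4 in mice aged 3 months, untreated mice aged 8 months and untreated mice aged 2 months, all on a mixed 129SV::FVB/N::C57BL/6 background. No vehicle-injected group was analysed here. The CCl4 mice were 3 months old and the untreated mice nearest to them 2 months old, so CCl4 and this difference in age cannot be told apart.

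Each genotype and condition has a single deposited column, although 3 replicates stand in the titles of most groups and 2 in those at 8 months. No value therefore carries a spread between animals, and the depth is unknown. Column totals ran from 531761 to 674119 FPKM. Ezh1 was at 2.94% to 13.2% of the WT value of its condition in the DKO and E1KO columns, except at 43.1% in the library labelled E1KO at 8 months. Ezh2 was at 44.2% of WT in DKO with CCl4, 139.6% at 8 months and 66.7% at 2 months, and at 69.0% to 86.8% in E2KO, in whole liver where non-hepatocytes keep the gene. The summed level of 12 skeletal muscle genes was 458.0 FPKM in the 8-month E1KO library and 1.25 to 2.00 FPKM in the others. Summed over 4 adipose tissue genes, FPKM at 8 months was 14.6 in DKO, 1.46 in E2KO, 5.27 in E1KO and 37.5 in WT. The same sum was 0.10 to 0.42 FPKM at 2 months and 0.31 to 5.15 FPKM with CCl4. Tests used limma on log2(FPKM + 1) with additive terms for genotype and condition over all 12 columns. The error in these tests is the departure of the columns from additivity. Differences below are on this log2(FPKM + 1) scale, which understates changes of low genes. Adjusted p is by Benjamini-Hochberg over 11394 genes that reached 1 FPKM in at least 2 columns. Of the 78 genes, 20 passed this filter.

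As background, most matrix metalloproteases are secreted or membrane-tethered zinc enzymes that cut collagens, gelatins, laminins and other matrix proteins, and they are made as inactive proenzymes. TIMPs bind the active site of these enzymes and block it, and TIMP3 also inhibits several ADAM and ADAMTS enzymes. ADAMs are membrane proteins, of which some shed cytokines, growth factors and receptors from the cell surface and others lack a working protease site. ADAMTS enzymes are secreted and cut procollagens, proteoglycans and other matrix proteins. In injured liver, stellate cells, macrophages and neutrophils are known sources of several of these proteins, and TIMP1 is known for its rise in fibrosis.

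Regulatory sequence was examined for the Mmp genes that lie side by side on chromosome 9. In RefSeq order (GRCm38.p6) these are Mmp13, Mmp12, Mmp1b, Mmp3, Mmp1a, Mmp10, Mmp8, Mmp27, Mmp20 and Mmp7, with 0 other protein-coding genes between neighbours. Promoter windows of 300 bases (250 before and 50 after the annotated start) were searched for the AP-1 letters TGANTCA, which read the same on both strands. AP-1 is the Fos and Jun dimer, a known activator of several MMP promoters. Of these 10 genes, which had 12 windows, 8 held the letters in at least 1 window. Counted per window and not per gene, 7.81% of all 32851 windows of the same length held them. The stretches below are the RefSeq letters of build GRCm38.p6 around each match, read 5′ to 3′ on the strand of the gene, with the match in capitals. They are shown because Mmp3, Mmp12 and Mmp7, whose values follow, share the match with neighbours whose values were near 0.
Mmp13 at chr9:7272462-7272502, plus strand: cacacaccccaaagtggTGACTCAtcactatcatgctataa
Mmp12 at chr9:7347313-7347353, plus strand: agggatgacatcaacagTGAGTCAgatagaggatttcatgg
Mmp1b at chr9:7388096-7388136, minus strand: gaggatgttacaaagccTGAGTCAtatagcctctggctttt
Mmp3 at chr9:7445759-7445799, plus strand: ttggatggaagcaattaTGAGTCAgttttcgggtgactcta
Mmp1a at chr9:7464051-7464091, plus strand: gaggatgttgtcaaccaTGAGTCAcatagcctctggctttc
Mmp10 at chr9:7502262-7502302, plus strand: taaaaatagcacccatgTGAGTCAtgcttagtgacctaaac
Mmp20 at chr9:7628119-7628159, plus strand: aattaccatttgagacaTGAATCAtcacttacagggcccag
Mmp7 at chr9:7692010-7692050, plus strand: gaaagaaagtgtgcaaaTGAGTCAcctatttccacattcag

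The first matched base lay at -35 from the start in Mmp13, -44 in Mmp12, -46 in Mmp3, -63 in Mmp10 and Mmp7, -73 in Mmp1a, -93 in Mmp1b and -95 in Mmp20. Mmp12 and Mmp7 each have a second listed start whose window held no match, and the windows of Mmp8 and Mmp27 held none. Levels differed among the genes with the letters. The highest value in any column was 3.89 FPKM for Mmp12, 3.39 for Mmp7 and 1.26 for Mmp3, against 0.30 for Mmp13, 0.13 for Mmp10, 0.01 for Mmp1a and Mmp1b, and 0 for Mmp20. In all, 48 of the 78 genes had at least 1 window among 53, and 12 of these windows held the letters. Among the 17 described genes with a window, these were Mmp3, Mmp7 and Mmp12.

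Timp1, the gene with the largest difference below, held no TGANTCA in its window at chrX:20869916-20870215 (GRCm38.p6, plus strand). It held the related letters TGAGTAA at position 27, counted from 1 at the annotated start, in capitals here.
Timp1: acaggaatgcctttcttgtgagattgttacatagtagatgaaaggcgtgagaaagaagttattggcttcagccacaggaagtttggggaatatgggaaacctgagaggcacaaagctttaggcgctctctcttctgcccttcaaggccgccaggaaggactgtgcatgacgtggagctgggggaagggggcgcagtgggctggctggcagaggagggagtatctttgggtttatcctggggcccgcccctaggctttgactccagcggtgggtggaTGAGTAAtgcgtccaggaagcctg

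These letters or their complement (TTACTCA) were in 2.68% of all windows and in 1 of the 53, that of Timp1. This search was added after the Timp1 values were seen. A match describes the letters in a window and no more.

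In untreated liver a few genes held most of the summed Mmp and Adam FPKM. Over the 8 untreated columns, Adam9, a widely expressed membrane protease, ranged from 8.96 to 18.6 FPKM with a median of 14.5. Mmp19, a secreted MMP that cuts basement membrane proteins, ranged from 8.70 to 14.2 FPKM (median 11.2), and the membrane-anchored Mmp15 from 6.65 to 10.7 (median 8.81). The ranges of Adam9, Mmp19 and Mmp15 overlap, so their order is not separated by the columns. Below them came the sheddase genes Adam10 (5.29 to 6.43 FPKM) and Adam17 (4.10 to 5.88 FPKM), then Timp3 (2.68 to 6.60), the membrane-anchored collagenase gene Mmp14 (2.22 to 5.91) and Timp2 (2.20 to 4.04). Adam17 overlaps Iah1, which stood at 101.6 to 177.1 FPKM, and whether counting used strand is not stated. The collagenase genes Mmp8 and Mmp13 reached at most 0.09 and 0.13 FPKM untreated. Of the gelatinase genes, Mmp9 reached at most 0.10 FPKM, while Mmp2 ranged from 0.34 to 1.51 FPKM (median 0.73). Over the 8 untreated columns, Mmp14, Mmp15 and Mmp19 together made up 70.6% to 94.4% of summed Mmp FPKM, and Adam9, Adam10 and Adam17 61.3% to 87.4% of summed Adam FPKM. The lowest share of both families was that of DKO at 8 months.

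**Figure D1:**
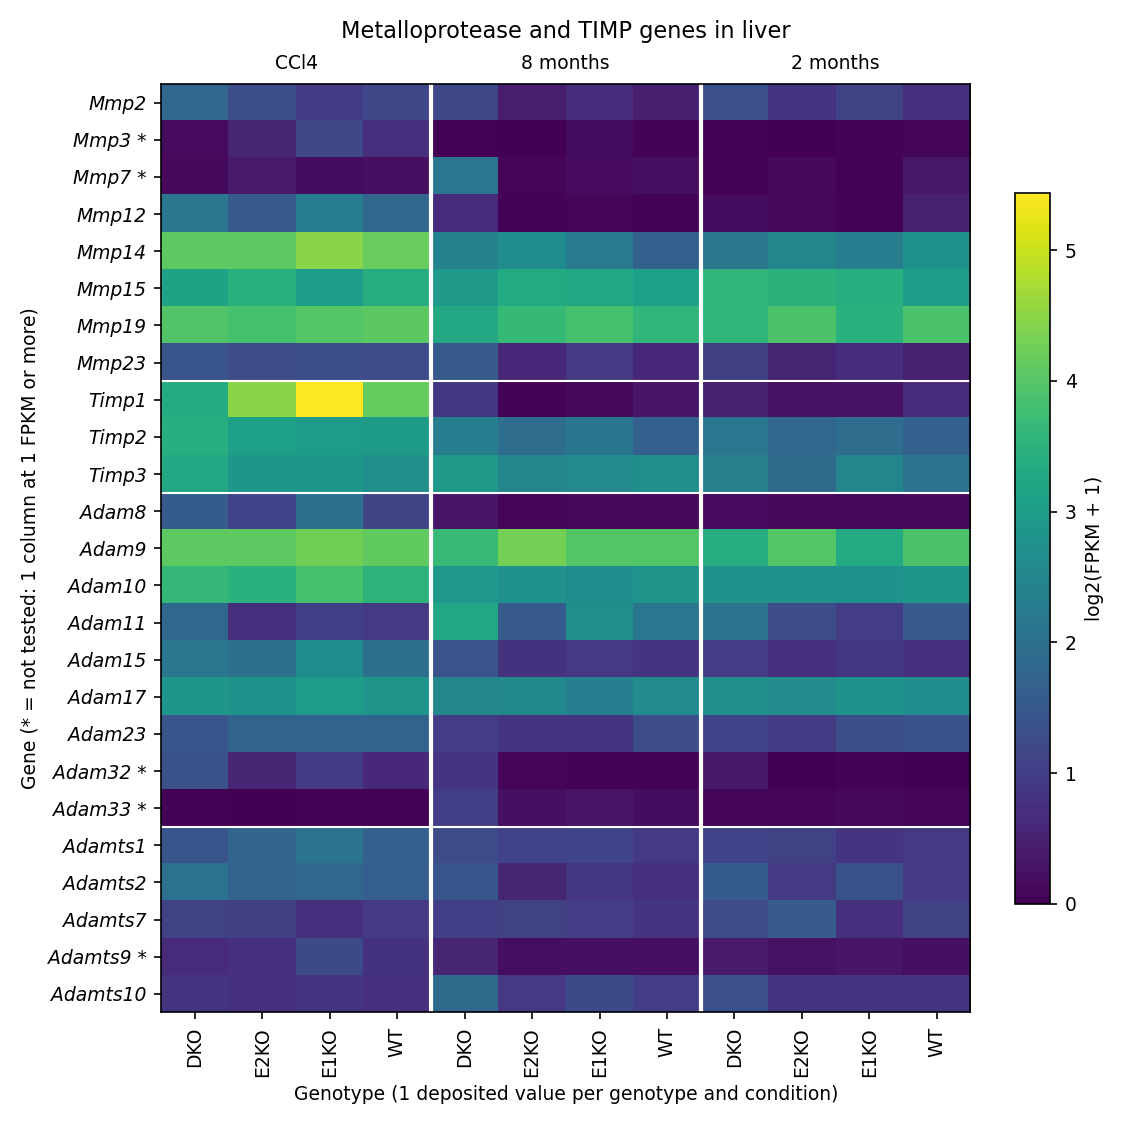
Levels of the 25 described genes (rows) in the 12 columns, as log2(FPKM + 1), with genotypes in the order DKO, E2KO, E1KO and WT within CCl4, 8 months and 2 months. Timp1 is bright only in the 4 CCl4 columns (9.18 to 42.4 FPKM), and Mmp7 only in DKO at 8 months (3.39 FPKM).

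The CCl4 columns were set against the 2-month columns to see how the proteases and inhibitors differ in toxin-treated liver. Timp1, Timp2 and Timp3 rose, and so did Mmp14, Mmp12, Mmp23 and Mmp2 among the MMPs, Adam8, Adam9, Adam10, Adam15 and Adam23 among the ADAMs, and Adamts1 and Adamts2. These are 14 of the 20 tested genes, and none fell (unadjusted p was under 0.05 for the same number, 14). Over all 11394 genes, 33.4% rose and 24.5% fell. The median difference was 0.60 over the 20 and 0.065 over all genes. Of the 14, Timp1, Mmp12, Adam8 and Adam15 passed the filter only through the CCl4 columns and so had to differ. Of the 16 genes that pass without those columns, 10 rose and none fell, with a median of 0.49. The matching share over all genes that pass without those columns was not counted. All 4 CCl4 columns lay above all 8 untreated columns for 10 genes, 6 of them among those 16, and below them for none, against 22.9% above and 16.9% below over all genes tested.

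Timp1, a secreted inhibitor of most MMPs, was at 9.18 FPKM in DKO, 21.1 in E2KO, 42.4 in E1KO and 16.7 in WT livers with CCl4. At 2 months it was at 0.40 in DKO, 0.19 in E2KO, 0.21 in E1KO and 0.58 in WT livers, and at 8 months at 0.84 in DKO, 0.03 in E2KO, 0.09 in E1KO and 0.25 in WT livers. The CCl4 and untreated sets do not overlap, but Timp1 passed the filter only through the CCl4 columns. The spread among genotypes was widest with CCl4, where E1KO was highest and DKO lowest. Timp1 rose by 3.93 ± 0.39 (SE; adjusted p = 8.81e-05), the largest difference of the 20. The FPKM ratio of CCl4 to 2 months was 22.9 in DKO, 111 in E2KO, 202 in E1KO and 28.8 in WT, with small denominators throughout. Timp1 lies within Syn1, which stayed at 0.06 to 0.31 FPKM.

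Timp2, which also takes part in the activation of pro-MMP2 by MMP14, stood at 9.58 FPKM in DKO, 7.52 in E2KO, 6.95 in E1KO and 6.80 in WT livers with CCl4. At 2 months it stood at 3.39 in DKO, 2.46 in E2KO, 2.84 in E1KO and 2.24 in WT livers. Timp2 rose by 1.22 ± 0.08 (adjusted p = 2.09e-05), with every CCl4 column above every untreated one. Timp3, the inhibitor bound to matrix, stood at 8.68, 6.21, 6.34 and 5.54 FPKM in DKO, E2KO, E1KO and WT livers with CCl4, against 4.14, 2.68, 4.65 and 3.18 FPKM in DKO, E2KO, E1KO and WT livers at 2 months. Timp3 rose by 0.73 ± 0.11 (adjusted p = 0.000646), but its 8-month DKO value of 6.60 FPKM lay above 3 of the CCl4 columns. Set against 8 months in place of 2 months, Timp3 differed by 0.25 without passing (adjusted p = 0.0761). Timp3 overlaps Syn3 (0.21 to 0.37 FPKM), and Timp2 overlaps Cep295nl, which was not matched in the table. Timp4 was at 0.07 FPKM or less in every column.

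**Figure D2:**
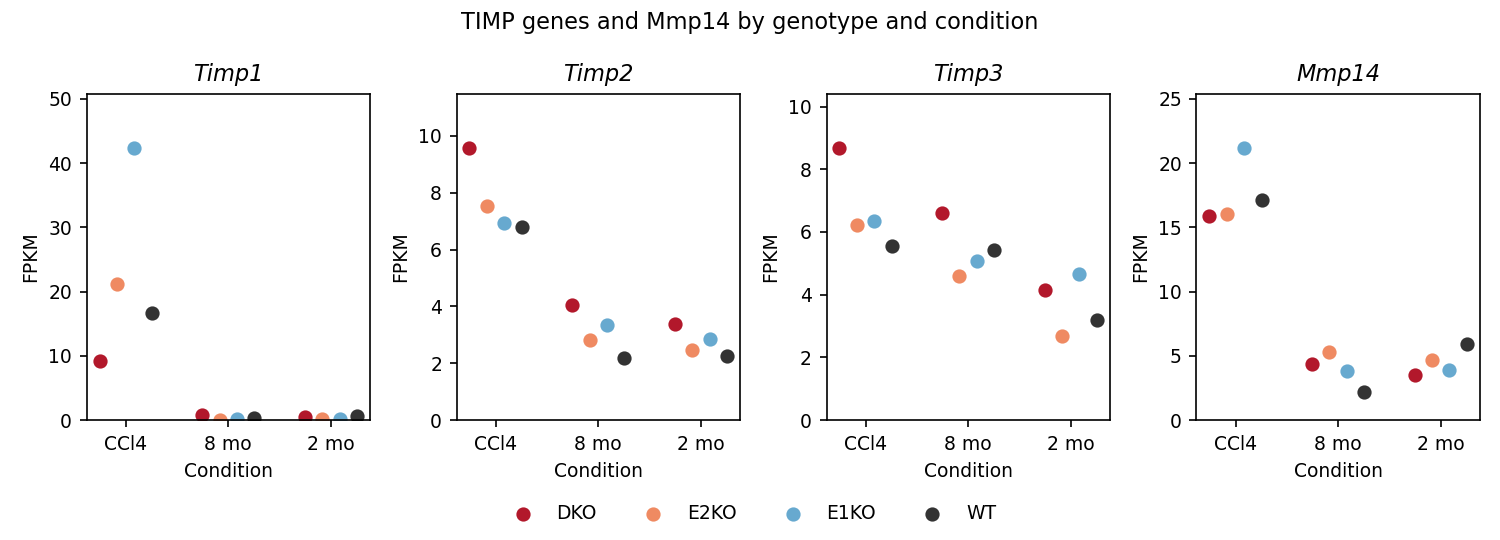
FPKM of Timp1, Timp2, Timp3 and Mmp14 by condition, with 1 point per genotype and each axis starting at 0. With CCl4, Timp1 spans 9.18 (DKO) to 42.4 (E1KO) FPKM, while at 2 and 8 months it stays at 0.84 FPKM or less.

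Among the MMPs, Mmp14 stood at 15.9 FPKM in DKO, 16.0 in E2KO, 21.2 in E1KO and 17.1 in WT livers with CCl4. At 2 months it stood at 3.51 in DKO, 4.68 in E2KO, 3.87 in E1KO and 5.91 in WT livers, and at 8 months at 4.38 in DKO, 5.30 in E2KO, 3.80 in E1KO and 2.22 in WT livers. Mmp14 rose by 1.77 ± 0.22 (adjusted p = 0.00022), and in each genotype it was the most abundant MMP gene with CCl4. Mmp12, the macrophage elastase, was at 3.52 FPKM in DKO, 1.91 in E2KO, 3.89 in E1KO and 2.45 in WT livers with CCl4, against 0.14 in DKO, 0.08 in E2KO, 0.04 in E1KO and 0.41 in WT livers at 2 months. At 8 months Mmp12 was at 0.56 in DKO, 0.03 in E2KO, 0.06 in E1KO and 0.03 in WT livers. Mmp12 rose by 1.74 ± 0.17 (adjusted p = 9.1e-05). Mmp23, a membrane-anchored MMP, was at 1.66, 1.36, 1.46 and 1.35 FPKM in DKO, E2KO, E1KO and WT livers with CCl4, against 1.03, 0.48, 0.64 and 0.39 FPKM in DKO, E2KO, E1KO and WT livers at 2 months. Mmp23 rose by 0.60 ± 0.12 (adjusted p = 0.00277). It overlaps Mib2, which was at 1.79 to 5.15 FPKM. Mmp2 (values with the genotypes below) rose by 0.31 ± 0.12 (adjusted p = 0.0464), and this call held without E1KO at 2 months or with CCl4 but was lost without each of the other columns, E1KO at 8 months included (adjusted p up to 0.147). Mmp15 and Mmp19 differed by -0.14 and 0.27 without passing (adjusted p = 0.393 for Mmp15 and 0.117 for Mmp19).

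Among the ADAMs, Adam8, a leukocyte protease, was at 2.01 FPKM in DKO, 1.14 in E2KO, 3.05 in E1KO and 1.19 in WT livers with CCl4. At 2 months it was at 0.11 in DKO, 0.10 in E2KO, 0.09 in E1KO and 0.09 in WT livers, and at 8 months at 0.25 in DKO, 0.07 in E2KO, 0.08 in E1KO and 0.08 in WT livers. Adam8 rose by 1.33 ± 0.16 (adjusted p = 0.00022), and with CCl4 it was highest in E1KO. Adam15 was at 3.47, 3.00, 5.25 and 3.05 FPKM in DKO, E2KO, E1KO and WT livers with CCl4, against 0.97, 0.66, 0.83 and 0.69 FPKM in DKO, E2KO, E1KO and WT livers at 2 months. Its 8-month values were 1.61, 0.73, 0.87 and 0.75 FPKM in DKO, E2KO, E1KO and WT livers. Adam15 rose by 1.37 ± 0.14 (adjusted p = 9.03e-05). Adam10, the main sheddase of Notch, was at 11.3, 10.1, 13.5 and 10.5 FPKM in DKO, E2KO, E1KO and WT livers with CCl4, against 5.91, 5.70, 5.75 and 6.40 FPKM in DKO, E2KO, E1KO and WT livers at 2 months. At 8 months Adam10 was at 6.43, 5.69, 5.29 and 6.00 FPKM in DKO, E2KO, E1KO and WT livers. Adam10 rose by 0.82 ± 0.10 (adjusted p = 0.000173). All 3 genes had no overlap between CCl4 and untreated columns, but Adam8 and Adam15 passed the filter only through the CCl4 columns.

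Adam17, the sheddase of TNF, did not pass. It was at 6.38, 5.86, 7.08 and 6.06 FPKM in DKO, E2KO, E1KO and WT livers with CCl4, against 5.56, 5.17, 5.88 and 5.24 FPKM in DKO, E2KO, E1KO and WT livers at 2 months, with 4.52, 4.77, 4.10 and 5.13 FPKM in DKO, E2KO, E1KO and WT livers at 8 months. Its difference was 0.18 ± 0.09 (adjusted p = 0.0945). Adam9 was at 15.9, 16.1, 18.2 and 16.3 FPKM in DKO, E2KO, E1KO and WT livers with CCl4, against 9.29, 14.96, 8.96 and 14.2 FPKM in DKO, E2KO, E1KO and WT livers at 2 months. The low 2-month values of Adam9 are those of the genotypes without Ezh1, and its rise of 0.49 ± 0.14 (adjusted p = 0.0179) was lost without E1KO or DKO of either condition (adjusted p up to 0.0665). Set against 8 months, Adam9 differed by 0.15 without passing (adjusted p = 0.381). Adam23, an ADAM without protease activity, stood at 1.72, 2.39, 2.36 and 2.33 FPKM in DKO, E2KO, E1KO and WT livers with CCl4, against 1.14, 0.93, 1.48 and 1.57 FPKM in DKO, E2KO, E1KO and WT livers at 2 months. At 8 months Adam23 stood at 0.97, 0.76, 0.80 and 1.44 FPKM in DKO, E2KO, E1KO and WT livers. It rose by 0.49 ± 0.11 (adjusted p = 0.00478).

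Of the ADAMTS genes, Adamts1, a protease of versican and aggrecan, was at 1.68, 2.40, 3.24 and 2.19 FPKM in DKO, E2KO, E1KO and WT livers with CCl4, against 1.13, 1.10, 0.78 and 0.91 FPKM in DKO, E2KO, E1KO and WT livers at 2 months and 1.39, 1.14, 1.12 and 0.90 FPKM in DKO, E2KO, E1KO and WT livers at 8 months. Adamts1 rose by 0.75 ± 0.14 (adjusted p = 0.00186). Adamts2, which removes the amino-terminal propeptide of fibrillar procollagens, rose by 0.60 ± 0.10 (adjusted p = 0.00102). Adamts7 and Adamts10 differed by -0.22 and -0.15 without passing (adjusted p = 0.146 for Adamts7 and 0.384 for Adamts10).

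**Figure D3:**
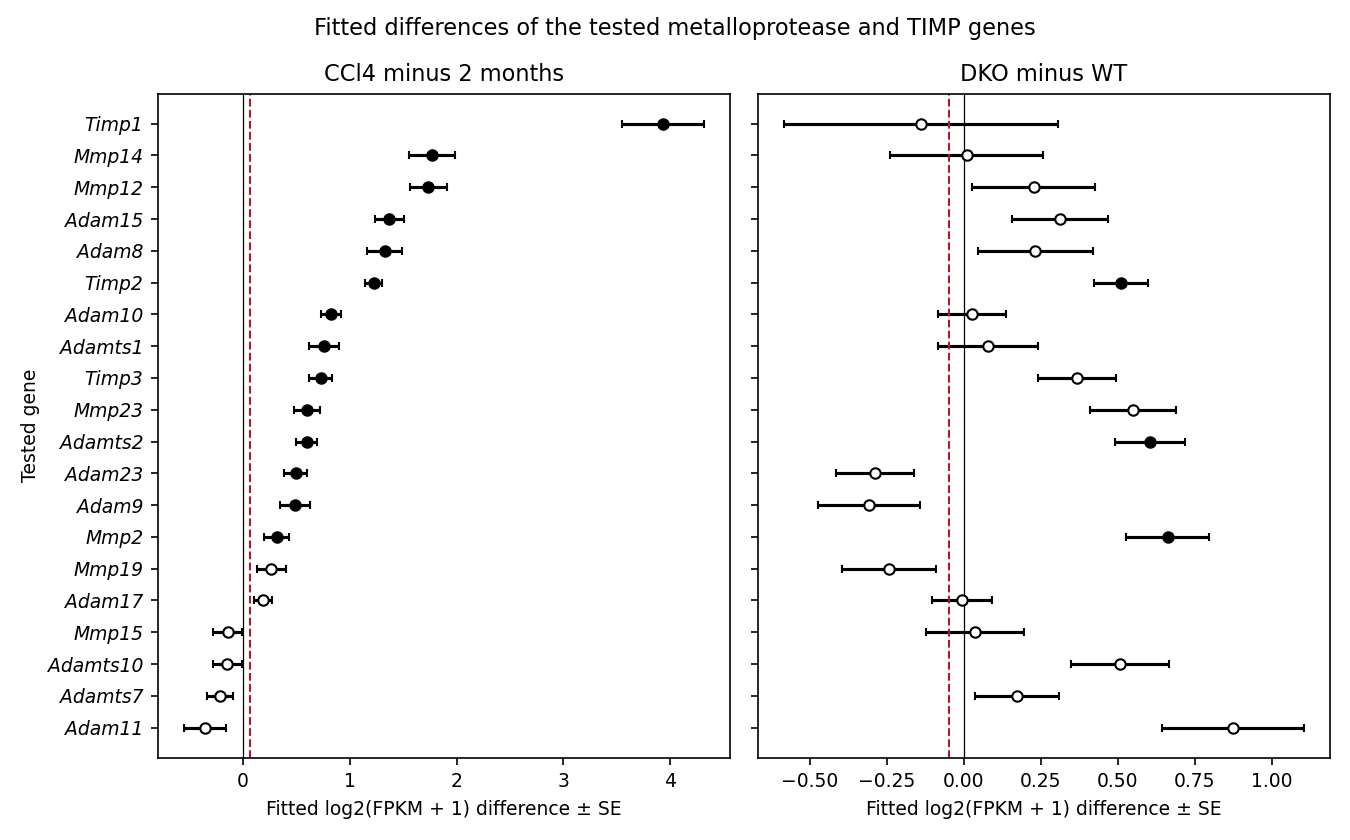
Fitted differences (points) with standard errors (bars) of the 20 tested genes on the log2(FPKM + 1) scale, CCl4 minus 2 months on the left and DKO minus WT on the right, with separate horizontal scales. Filled points passed the adjusted threshold of 0.05, and the dashed line is the median over all 11394 genes (0.065 on the left and -0.046 on the right).

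The balance of the families differed between conditions on the FPKM scale. Summed TIMP FPKM was 27.5 to 55.7 with CCl4, 7.46 to 11.5 at 8 months and 5.33 to 7.95 at 2 months. Summed MMP FPKM was 46.8 to 54.0 with CCl4, 22.1 to 28.3 at 8 months and 26.4 to 31.0 at 2 months. The ratio of MMP to TIMP FPKM was therefore lower in each CCl4 column (0.97 in E1KO to 1.81 in DKO) than in any untreated column (2.44 to 5.82). Timp1 made up 33.4% of the TIMP sum in DKO with CCl4, 60.5% in E2KO, 76.1% in E1KO and 57.5% in WT. In the untreated columns it made up 0.40% to 9.67%. The separation of the ratios needs Timp1, which passed the filter only through the CCl4 columns. With Timp1 left out of the sums, the CCl4 and untreated ratios overlap. These sums are descriptions without a test, and RNA levels do not give enzyme or inhibitor activity.

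**Figure D4:**
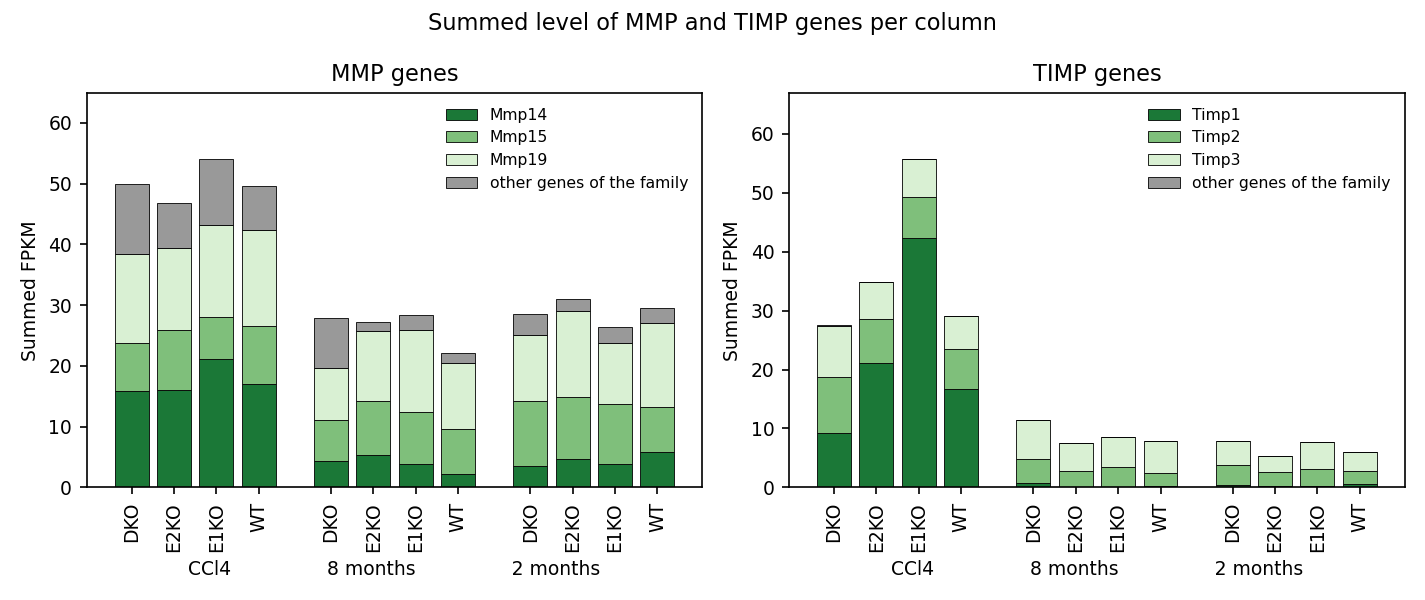
Summed FPKM of the Mmp genes (left) and Timp genes (right) in each column, stacked by gene, with DKO, E2KO, E1KO and WT in each condition. TIMP bars reach 27.5 to 55.7 FPKM with CCl4 and at most 11.5 FPKM without it, and MMP bars 46.8 to 54.0 and at most 31.0 FPKM.

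Markers of several cell types moved with the CCl4 columns. Summed over 11 stellate cell and myofibroblast markers, FPKM was 73.3 to 219.9 with CCl4, against 20.5 to 30.8 at 2 months, and 10 of the 11 rose. Over 11 macrophage and Kupffer cell markers in the table it was 226.9 to 517.4 with CCl4, against 73.1 to 116.2 at 2 months, and 9 of 10 tested rose. Over 7 neutrophil markers it was 14.1 to 55.2 with CCl4, against 3.61 to 8.10 at 2 months. Over 6 endothelial markers it was 75.4 to 87.8 with CCl4, against 26.8 to 41.5 at 2 months, and over 6 cholangiocyte markers 318.8 to 697.8 with CCl4, against 42.7 to 89.3 at 2 months. Over 5 markers of proliferating cells it was 37.8 to 117.8 with CCl4, against 1.30 to 2.68 at 2 months, and all 5 rose (median 3.46). Over 7 hepatocyte markers it was 2014 to 6441 with CCl4, against 9354 to 11469.9 at 2 months. None of these markers was at 0 in every column. Their part in the protease and inhibitor differences was not tested, and in whole liver fewer cells of a type and less RNA per cell cannot be told apart.

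DKO was set against WT to see which proteases and inhibitors differ when Ezh1 is lost everywhere and Ezh2 in hepatocytes. Mmp2 and Adamts2 rose, and so did the inhibitor gene Timp2, 3 of the 20 tested genes, and none fell. Over all genes 1.81% rose and 0.816% fell. The median difference was 0.20 over the 20 and -0.046 over all genes, with 15 of the 20 positive and 7 at an unadjusted p under 0.05. Without the DKO columns Adamts10 would not have passed the filter. Of the 19 others, 3 rose and none fell, and the matching share over all genes was not counted.

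Mmp2, the gelatinase that cuts denatured collagen and type IV collagen, was at 2.58 FPKM in DKO, 1.47 in E2KO, 0.96 in E1KO and 1.23 in WT livers with CCl4. At 8 months it was at 1.25 in DKO, 0.34 in E2KO, 0.61 in E1KO and 0.37 in WT livers, and at 2 months at 1.51 in DKO, 0.78 in E2KO, 1.17 in E1KO and 0.67 in WT livers. DKO was the highest genotype in every condition. The FPKM ratio of DKO to WT was 2.10 with CCl4, 3.38 at 8 months and 2.25 at 2 months. Mmp2 rose by 0.66 ± 0.14 (adjusted p = 0.0457). This call held without E1KO with CCl4 and was lost when any other single column was left out, E1KO at 8 months included (adjusted p up to 0.153), while the difference stayed at 0.61 to 0.74.

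Adamts2 was at 3.15 FPKM in DKO, 2.31 in E2KO, 2.47 in E1KO and 2.07 in WT livers with CCl4. At 8 months it was at 1.73 in DKO, 0.51 in E2KO, 0.81 in E1KO and 0.66 in WT livers, and at 2 months at 1.99 in DKO, 0.91 in E2KO, 1.60 in E1KO and 0.89 in WT livers. DKO was again highest throughout, and E1KO at 2 months came closest to it. Adamts2 rose by 0.60 ± 0.11 (adjusted p = 0.0352). The call held without E2KO at 8 months, E2KO with CCl4, DKO with CCl4 or E1KO at 8 months (adjusted p = 0.04997 for the last), and was lost without each other column (adjusted p up to 0.135).

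Timp2 at 8 months was at 4.04 FPKM in DKO, 2.83 in E2KO, 3.36 in E1KO and 2.20 in WT livers, and its other values stand above. Timp2 rose in DKO by 0.51 ± 0.09 (adjusted p = 0.0289), with DKO highest in all 3 conditions and an FPKM ratio to WT of 1.41 with CCl4, 1.84 at 8 months and 1.51 at 2 months. The call held without E1KO at 8 months, E2KO at 8 months or E1KO with CCl4 and was lost without each other column (adjusted p up to 0.0967), with a difference of 0.44 to 0.56. With the WT and DKO columns alone in the fit, none of the 3 genes passed. Without the filter on low values, Timp2 and Adamts2 passed and Mmp2 did not (adjusted p = 0.0538).

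Mmp23 and Adam11 were also highest in DKO in all 3 conditions. Adam11, an ADAM without protease activity known mainly from the nervous system, was at 2.57 FPKM in DKO, 0.68 in E2KO, 1.00 in E1KO and 0.86 in WT livers with CCl4. At 8 months it was at 8.47 in DKO, 1.91 in E2KO, 5.51 in E1KO and 3.39 in WT livers, and at 2 months at 3.29 in DKO, 1.43 in E2KO, 0.99 in E1KO and 1.88 in WT livers. The 8-month E1KO value is from the library with muscle RNA. Adam11 differed by 0.87 ± 0.23 between DKO and WT without passing (adjusted p = 0.0906, and 0.0588 without that library). Mmp23 differed by 0.55 ± 0.14 without passing (adjusted p = 0.0819), with 1.92 FPKM in DKO, 0.55 in E2KO, 0.89 in E1KO and 0.54 in WT livers at 8 months. In all, 5 of the 20 genes had DKO above the other genotypes in every condition and none had DKO below them, against 5.94% above and 8.63% below over all genes tested.

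**Figure D5:**
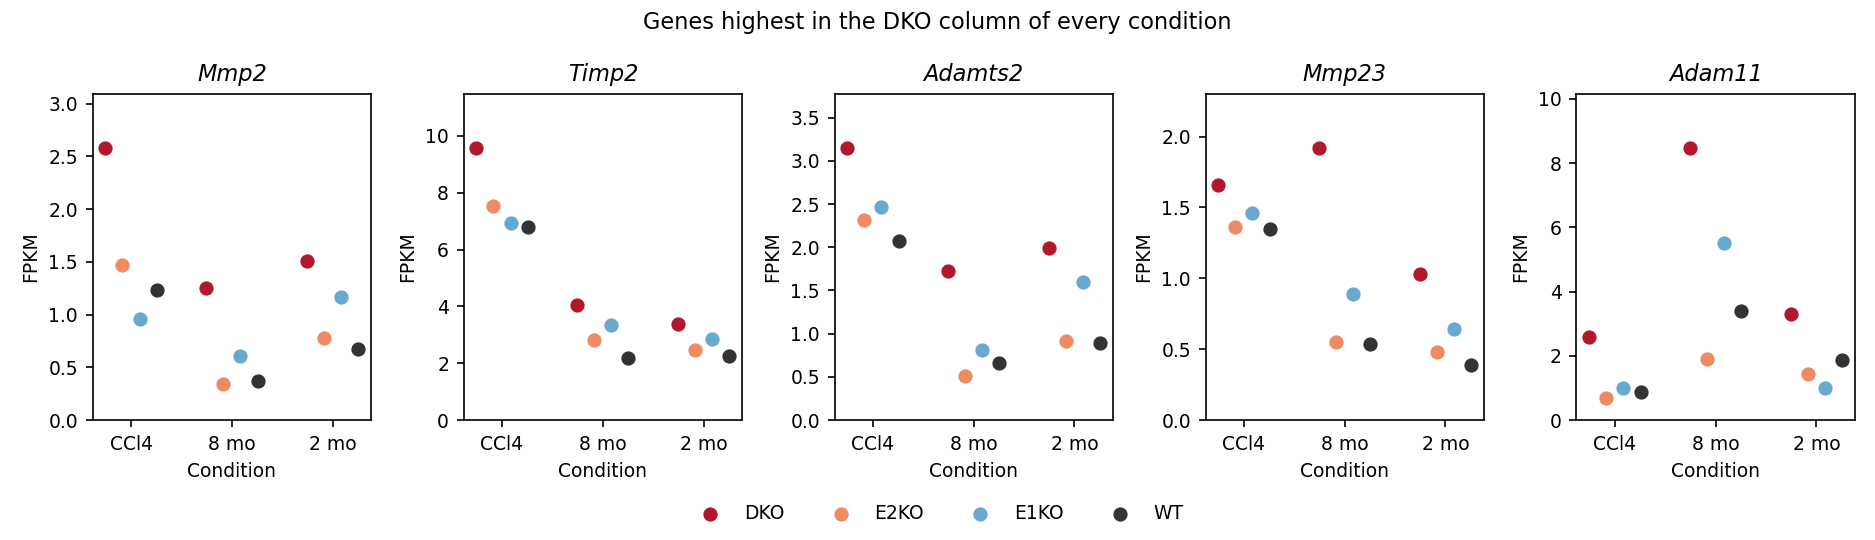
FPKM of the 5 genes that were highest in DKO in every condition, with 1 point per genotype and each axis starting at 0. Mmp2, Timp2 and Adamts2 passed the adjusted threshold for DKO against WT, and Mmp23 and Adam11 did not.

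Adamts10, a protease tied to fibrillin microfibrils, was at 0.80 FPKM in DKO, 0.72 in E2KO, 0.80 in E1KO and 0.67 in WT livers with CCl4. At 8 months it was at 2.70 in DKO, 0.86 in E2KO, 1.32 in E1KO and 0.99 in WT livers, and at 2 months at 1.51 in DKO, 0.77 in E2KO, 0.80 in E1KO and 0.75 in WT livers. It differed by 0.51 ± 0.16 without passing (adjusted p = 0.138). Mmp14 was lower in DKO than in WT at 2 months (3.51 against 5.91 FPKM) and higher at 8 months (4.38 against 2.22 FPKM), with a fitted difference of 0.0092 ± 0.25. Adam10 and Adam17 had fitted differences of 0.028 ± 0.11 and -0.0050 ± 0.10. Adam9 differed by -0.31 ± 0.17 (adjusted p = 0.36), with DKO at 11.7, E2KO at 18.6, E1KO at 14.8 and WT at 14.9 FPKM at 8 months.

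Within single conditions, 1 gene (Adam11, 1.11 at 8 months) differed by at least 1 on the log2(FPKM + 1) scale between DKO and WT, upward, and none of the 20 did so with CCl4 or at 2 months. Over all genes tested, 2.93% were higher and 2.47% lower by this rule with CCl4, 2.86% higher and 1.22% lower at 8 months, and 1.99% higher and 1.48% lower at 2 months. The median over the 20 was 0.13 with CCl4, 0.44 at 8 months and 0.17 at 2 months, against -0.031 with CCl4, -0.031 at 8 months and -0.043 at 2 months over all genes. No test stands behind these counts. With a pseudocount of 0.1 in place of 1 FPKM, 2 genes were higher in DKO by this rule with CCl4, 8 at 8 months and 3 at 2 months, and 1 (Mmp12 at 2 months) was lower. Over all genes at that pseudocount, 4.8% were higher and 3.63% lower with CCl4, 6.71% higher and 1.63% lower at 8 months, and 4.05% higher and 2.26% lower at 2 months.

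The DKO difference with CCl4 was compared with that at 2 months in a fit with DKO-by-condition terms, where DKO is set against the average of the other genotypes. In limma none of the 20 genes passed, with 1 at an unadjusted p under 0.05, against 0.219% higher and 0.0702% lower over all genes. That 1 gene was Adamts10 (-0.44 ± 0.17, adjusted p = 0.501). For the DKO difference at 8 months against that at 2 months limma called none of the 20, with 0 at an unadjusted p under 0.05, against 0.184% higher and 0.0614% lower over all genes. With CCl4, Timp1 had the largest estimate, -1.43 ± 0.60 (adjusted p = 0.545). Its DKO value was the lowest of the 4 genotypes with CCl4, but the estimate did not pass. Of the 11 stellate cell markers 4 were positive in this fit, with a median of -0.17 against 0.012 over all genes. Of the 11, 1 passed, Tagln (-2.14, adjusted p = 0.0471). Their summed FPKM, which abundant markers dominate, was also lowest in DKO with CCl4 (73.3 FPKM, against 123.6 in E2KO, 219.9 in E1KO and 137.2 in WT). Markers of proliferating cells were lowest there too (37.8 FPKM, against 86.5 in E2KO, 73.6 in E1KO and 117.8 in WT). Hepatocyte markers were highest there (6441 FPKM, against 2014 in E2KO, 2272 in E1KO and 2257 in WT). Their part in the Timp1 level was not tested.

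Among mesenchymal markers, the summed stellate list did not follow a single direction in DKO, while the summed portal fibroblast list was above WT in every condition. Summed stellate cell and myofibroblast markers were at 73.3 FPKM in DKO and 137.2 in WT with CCl4, 34.2 in DKO and 20.5 in WT at 8 months, and 30.8 in DKO and 22.1 in WT at 2 months. Summed over 4 portal fibroblast markers, FPKM was 7.44 in DKO and 6.24 in WT with CCl4, 6.36 in DKO and 2.29 in WT at 8 months, and 4.27 in DKO and 2.01 in WT at 2 months. Of the 11 stellate markers 1 rose (Hand2) and of the 4 portal fibroblast markers none, and none of either list was at 0 in every column. In the additive fit 8 of the 11 stellate markers were positive (median 0.28) and all 4 portal fibroblast markers (median 0.44), against a median of -0.046 over all genes. Macrophage markers were at 433.3 FPKM in DKO and 226.9 in WT with CCl4, 87.1 in DKO and 52.0 in WT at 8 months, and 98.9 in DKO and 100.6 in WT at 2 months. Neutrophil markers were at 55.2 in DKO and 14.1 in WT with CCl4, 20.2 in DKO and 2.28 in WT at 8 months, and 8.10 in DKO and 6.87 in WT at 2 months. Cholangiocyte markers were at 697.8 in DKO and 405.9 in WT with CCl4, 303.9 in DKO and 44.0 in WT at 8 months, and 89.3 in DKO and 59.9 in WT at 2 months, and 1 of 5 tested, Cldn7, rose (1.96, adjusted p = 0.0104). Summed over 7 lymphocyte markers, FPKM was 4.70 in DKO and 1.18 in WT with CCl4, 7.19 in DKO and 2.87 in WT at 8 months, and 3.83 in DKO and 2.06 in WT at 2 months, and 1 of 2 tested, Nkg7, rose (0.90, adjusted p = 0.0301). The part of these markers in the DKO differences of Mmp2, Timp2 and Adamts2 was not tested.

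Loss of Ezh1 or of hepatocyte Ezh2 alone was examined in the same fit. In E1KO against WT limma called none of the 20 genes, with 1 (Timp2, 0.24 ± 0.09, adjusted p = 0.871) at an unadjusted p under 0.05, and over all genes 0.0176% rose and 0% fell. In E2KO against WT limma called none, with 0 at an unadjusted p under 0.05, and over all genes 0% rose and 0% fell. The medians over the 20 were 0.12 in E1KO and -0.012 in E2KO. The E1KO columns include the 8-month library with muscle RNA. Without that library limma again called none of the 20 in E1KO or E2KO. In E1KO, Timp2 then had an unadjusted p of 0.12, while Adam15 (0.038) and Adamts2 (0.047) were under 0.05. In E2KO, Adamts7 (0.035) and Adam23 (0.043) were under 0.05. The E1KO columns of Timp2 and Adamts2 stand between DKO and WT in all 3 conditions, and those of Mmp2 at 8 and 2 months. The E2KO columns of Timp2 also do so in all 3 conditions, and those of Mmp2 and Adamts2 with CCl4 and at 2 months. Whether the single losses differ from DKO was not tested.

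Age was examined with the 8-month against the 2-month columns. Adam11 rose by 0.93 ± 0.20 (adjusted p = 0.0396), and none of the 20 genes fell (6 were at an unadjusted p under 0.05), against 2.7% higher and 1.59% lower over all genes. Adam11 was higher at 8 months than at 2 months in all 4 genotypes. Without the 8-month E1KO library the difference was 0.73 (adjusted p = 0.0951), and the call held only without E2KO at 2 months, E2KO at 8 months or DKO with CCl4 among the 12 single columns left out (adjusted p up to 0.136). Timp3 stood at 6.60 FPKM in DKO, 4.60 in E2KO, 5.08 in E1KO and 5.43 in WT livers at 8 months, and differed by 0.47 ± 0.11 without passing (adjusted p = 0.0502). Mmp2 differed by -0.32 ± 0.12 (adjusted p = 0.155).

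The remaining 5 described genes reached 1 FPKM in a single column and were not tested. Mmp7, matrilysin, which epithelial cells make, was at 3.39 FPKM in DKO, 0.05 in E2KO, 0.12 in E1KO and 0.16 in WT livers at 8 months, and at 0.31 FPKM or less in every other column. Cholangiocyte markers were also highest among 8-month columns in DKO, with 6 markers at 303.9 FPKM in DKO and 44.0 in WT. They reached 318.8 to 697.8 FPKM with CCl4, where Mmp7 was at 0.10 in DKO, 0.31 in E2KO, 0.13 in E1KO and 0.17 in WT livers, and their part in the Mmp7 value was not tested. Adam33, a mesenchymal ADAM, was at 1.00 FPKM in the same DKO column, 0.17 in E2KO, 0.24 in E1KO and 0.13 in WT livers.

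Adam32, which is known from testis, was at 1.56 FPKM in DKO, 0.50 in E2KO, 0.92 in E1KO and 0.53 in WT livers with CCl4. At 8 months it was at 0.79 in DKO, 0.05 in E2KO, 0.04 in E1KO and 0.03 in WT livers, and at 2 months at 0.30 in DKO and 0.01 in WT livers. DKO was thus the highest genotype of Adam32 in each condition. With CCl4 this was fixed by the choice of genes, since Adam32 is described only because that DKO column reached 1 FPKM. With no filter on low values Adam32 was called higher in DKO than in WT, which is no separate support for a gene described through DKO. Mmp3, stromelysin, was at 0.12 FPKM in DKO, 0.49 in E2KO, 1.26 in E1KO and 0.66 in WT livers with CCl4, and at 0.14 or less elsewhere. Adamts9 was at 0.60 FPKM in DKO, 0.69 in E2KO, 1.32 in E1KO and 0.73 in WT livers with CCl4. Both were highest in the E1KO column with CCl4, the only column in which they reached 1 FPKM. Timp1, Mmp14, Mmp12, Adam8, Adam10, Adam15, Adam17 and Adamts1 were also highest in that column. The share of all genes that were highest in that column was not counted. That column also had the highest stellate (219.9 FPKM) and macrophage (517.4 FPKM) marker sums, whose part in this was not tested. Mmp8 and Adam1a, under 1 FPKM throughout like Mmp13 above, are named because of their values. The neutrophil collagenase Mmp8 was at 0.94 FPKM in DKO, 0.25 in E2KO, 0.55 in E1KO and 0.22 in WT livers with CCl4. Neutrophil marker sums there were 55.2 in DKO, 22.2 in E2KO, 35.5 in E1KO and 14.1 in WT, and their part in the Mmp8 values was not tested. The gelatinase Mmp9 was at 0.48, 0.20, 0.43 and 0.13 FPKM in DKO, E2KO, E1KO and WT livers with CCl4, against 0.09, 0.08, 0.06 and 0.04 FPKM in DKO, E2KO, E1KO and WT livers at 2 months and 0.10, 0.09, 0.07 and 0.02 FPKM in DKO, E2KO, E1KO and WT livers at 8 months. Adam1a was at 0.03 to 0.05 FPKM with CCl4, against 0.17 to 0.31 in the untreated columns.

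The proteins that the enzymes cut, and those that activate or assist them, were followed in lists chosen by function. The counts below stand beside 33.4% of all genes that rose and 24.5% that fell with CCl4. In DKO the shares over all genes were 1.81% and 0.816%. Of 16 collagen, elastin, fibronectin and basement membrane genes, 15 rose with CCl4 and none fell (median 1.15 against 0.065 over all genes), led by Col1a1 (2.42), Nid1 (2.21) and Col1a2 (2.02). In DKO 2 of the 16 rose, Col14a1 (0.87) and Col6a1 (0.61). In that fit 15 of the 16 were positive, with a median of 0.52 against -0.046 over all genes. In E1KO all 16 were positive (median 0.26) and in E2KO 5 were (median -0.053), with none called in either. Among plasminogen activation genes, which form the serine protease route to MMP activation, Anxa2 (3.13), Plau (1.71), Plaur (1.32) and Plat (1.23) were among those that rose with CCl4, and Plg, the plasminogen gene, fell by 0.32. None of these named genes passed in DKO.

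Of 13 other matrix proteases and clearance genes tested, 8 rose with CCl4, such as the cathepsin genes Ctss (1.94) and Ctsd (0.96), and the clearance receptor gene Lrp1 fell by 0.41. The secreted serine protease gene Htra1 rose with CCl4 (1.15) and in DKO (0.93, adjusted p = 0.034). Of 4 proprotein convertases, which remove the propeptides of MMP14 and of ADAMs, Furin fell by 0.56 with CCl4 and none passed in DKO. Of 6 tested iRhom and tetraspanin partners of ADAM17 and ADAM10, Tspan17 (1.03), Tspan15 (0.59), Rhbdf1 (0.53) and Tspan14 (0.34) rose with CCl4. In DKO, Tspan15 (0.67, adjusted p = 0.0497) and Tspan17 (0.58, adjusted p = 0.041) rose, while Adam10 itself did not pass.

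Of 17 tested ADAM substrates, 6 rose with CCl4 (Cd44, Cxcl16, Axl, App, Sdc1 and Btc, 0.42 to 1.53) and Sdc4 (-0.86) and Mertk (-0.41) fell. The count of 6 is near the share over all genes (33.4%), and the list median was 0.23 against 0.065 over all genes. App was the 1 substrate that rose in DKO (0.81, adjusted p = 0.0121). Only 3 of 14 ADAMTS-like and ADAMTS substrate genes were tested, of which Fbn1 (1.13) and Adamtsl2 (0.72) rose with CCl4. Of 6 tested AP-1 genes, Atf3 (1.12), Fos (0.88), Fosl2 (0.61), Jun (0.55) and Jund (0.37) rose with CCl4 and none passed in DKO. At 8 months Plg (-0.54, adjusted p = 0.0443), Bmp1 (-0.37, adjusted p = 0.0417), Tspan33 (-0.89, adjusted p = 0.00467) and Cdh1 (-1.77, adjusted p = 0.0488) were lower than at 2 months and passed. Over all genes 2.7% were higher and 1.59% lower at 8 months. No gene of these lists passed in E1KO or E2KO. In the fit with DKO-by-condition terms the DKO difference of the meprin gene Mep1a was higher than at 2 months both with CCl4 (1.64, adjusted p = 0.0148) and at 8 months (1.37, adjusted p = 0.0176).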

How the data were processed

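Per the labels, RNA-seq libraries were made from 1 ug of total liver RNA. The authors deposited FPKM values, with 1 column per genotype and condition and no statement of how replicates were merged. The submitters' processing notes list TopHat, Cufflinks and CASAVA beside ChIP-seq tools, and build mm9, without versions. The 9 ChIP-seq and input samples are not analysed here.

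The 11394 of 22520 genes that reached 1 FPKM in 2 or more columns were fitted as log2(FPKM + 1) with limma (version 3.58.1, R 4.3.3; eBayes with trend, two-sided). The additive fit left 6 residual degrees of freedom and the fit with DKO-by-condition terms 4. The code was tested on simulated data. With no replicate columns, p-values measure departure from additivity and not the spread between animals. The naming rule allowed any described gene. It asked for the value in every column of called genes, of Timp genes, of Adam10, Adam17, Mmp2, Mmp9 and Mmp14, and of genes that differed by at least 2-fold between DKO and WT in a condition. The members and lists were chosen with earlier results of these data known. Promoter letters are from RefSeq (GRCm38.p6), matched by symbol. A planned motif search in protein sequences was not run. Alternatives were pseudocounts of 0.1 and 0.5, no filter, rescaled columns, left-out columns or conditions, and CCl4 set against 8 months. One gene of the pathway lists is not reported here.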

Additional observations from a re-analysis of the deposited data

How the results depend on the processing

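Over single columns left out, the genes called higher with CCl4 numbered 12 to 13, those lower 0 to 2, those higher in DKO 0 to 3, those changed at 8 months 0 to 1. With a pseudocount of 0.1 FPKM 1 gene (Timp2) rose in DKO, 2 changed at 8 months (Adam11 and Timp3), and 2, 8 and 4 differed by at least 2-fold in DKO with CCl4, at 8 months and at 2 months, upward except Mmp12 at 2 months. In the same order, 4.8%, 6.71% and 4.05% of all genes were higher by that rule, and 3.63%, 1.63% and 2.26% lower. With a pseudocount of 0.5 FPKM 2 changed at 8 months, and 1 and 5 differed by 2-fold in DKO with CCl4 and at 8 months, all upward (3.73% and 4.16% of all genes were higher). With no filter on low values 30 rose and 3 fell with CCl4 (13 of the 14 among them), 3 rose in DKO (Adam32, Adamts2 and Timp2, without Mmp2), 0 changed at 8 months, 1 (Adam5) had a DKO difference that depended on CCl4, and 2 (Adam11 and Mmp7) differed by 2-fold in DKO at 8 months. Rescaled columns gave 2 changed at 8 months and moved the median of all genes by 0.044 in DKO. In DKO 0 genes rose without the 2-month, 8-month or CCl4 columns, or with WT and DKO columns alone, where 9 rose with CCl4 and 0 changed at 8 months. Without the CCl4 columns 0 changed at 8 months. Set against 8 months, an alternative chosen after seeing the data, 14 rose and 2 fell (Adam11 and Adamts10) with CCl4. In these alternatives no difference of a called gene changed sign. The causes were not tested. No paired analysis was possible because each group has a single column. Depth is unknown, so no counting error is given.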
